A study of Mus musculus with 8 samples.

Results

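Cyclic AMP and cyclic GMP are second messengers whose levels in a neuron are set by the cyclases that make them and the phosphodiesterases that break them down. The genes described here encode both kinds of enzyme, together with the kinase subunits and exchange factors named beside them. They were chosen by symbol: Pde with a number, Adcy, Gucy1 and Gucy2, Prkaa, Prkac and Prkar, and Rapgef2 to Rapgef6. A further condition was at least 10 exonic counts in 4 or more of the 8 libraries. The symbols matched 57 genes, and 53 of the 55471 gene identifiers in the exonic table met the rule. The 4 that did not were Gucy1b2, Gucy2d, Gucy2f and Pde6a. Gucy2f, just outside the rule, reached 10 counts in 3 libraries, and Adcy4, just inside it, did so in 6. Spelling also brought in genes that are not cyclic nucleotide enzymes or effectors. Among these are Pde6d, a carrier of prenylated proteins, and Pde12, a mitochondrial RNA-degrading enzyme. Prkaa1 and Prkaa2, the catalytic subunits of AMP-activated protein kinase, are others. Of the Rapgef genes, direct binding of cyclic AMP is described below for Rapgef3 and Rapgef4 only.

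Adenylyl cyclases are driven by stimulatory G proteins, and some isoforms also by calcium with calmodulin, so that both transmitters and electrical activity can raise cyclic AMP. Cyclic AMP releases the catalytic subunits of protein kinase A from its regulatory subunits and binds directly to the exchange factors Rapgef3 and Rapgef4 (Epac1 and Epac2), which activate the small GTPase Rap. Phosphodiesterase families differ in substrate and in control by calcium, by cyclic GMP or by phosphorylation, and in forebrain neurons cyclic AMP signalling is known for its part in synaptic plasticity and in transcription through the factor CREB.

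The study measured polyadenylated nuclear RNA from forebrain excitatory neurons 100 min after an injection that induced acute seizures (Pilo, 4 libraries) or after its control (Mock, 4 libraries). Pilo mice received scopolamine methyl nitrate at 1 mg/kg and, 30 min later, pilocarpine hydrochloride at 340 mg/kg; pilocarpine is an agonist of muscarinic receptors, and mice with seizures of grade 3 to 5 on the Racine scale were kept. Mock mice received the same scopolamine and then saline, with no selection by behaviour. All mice were male C57BL/6J of 6 to 8 weeks with the genotype CaMKIIalpha-Cre:SUN1-sfGFP, in which Cre under the Camk2a promoter labels nuclear envelopes for affinity isolation (INTACT). The action of the drug and that of the seizures cannot be told apart. The labels do not say that each library came from a separate mouse, so p-values measure only the spread between these libraries.

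Exonic counts per library totalled 29356788 to 36161448 in the first deposited table. A second table gave exonic counts of 27135364 to 33715773 and intronic counts of 11928054 to 16703475 per library. Libraries 2 and 3 of each group carry exchanged numbers between the tables, and a replicate number is that of the table in question. In the exonic table, the summed level of 7 excitatory neuron markers was 2941 to 3492 CPM, counts scaled to library size, in Pilo and 2580 to 3226 CPM in Mock. Markers of other cells were also present, and every gene on the marker lists passed the count filter. Sums over 7 GABAergic interneuron markers were 156 to 244 CPM in Pilo and 120 to 156 CPM in Mock; over 7 striatal projection neuron markers they were 257 to 364 CPM in Pilo and 238 to 330 CPM in Mock. Sums for 5 astrocyte markers were 114 to 304 CPM in Pilo and 111 to 234 CPM in Mock, and for 5 oligodendrocyte lineage markers 329 to 589 CPM in Pilo and 254 to 351 CPM in Mock. For 5 microglia markers the sums were 11.5 to 19.5 CPM in Pilo and 9.64 to 17.0 CPM in Mock, and for 5 endothelial and mural markers 17.1 to 72.2 CPM in Pilo and 14.1 to 29.4 CPM in Mock. In both groups replicates 3 and 4 held the most astrocyte, oligodendrocyte and microglia signal, and Pilo replicate 3 stood apart in endothelial and mural signal. Of the 7 excitatory neuron markers, 4 passed the test higher in Pilo without a block (Neurod6, Neurod2, Tbr1 and Nrgn) and 0 lower. That test called 15.6% of all genes higher and 16.2% lower. Only Neurod2 among them kept its call whichever 1 library was left out. With the replicate number as a block, 5 of the 7 were higher and 1 lower, against 23.8% and 23.2% of all genes. Gad1, Gad2, Ppp1r1b and Mbp were the marker genes of other cell types that passed the test without a block, each higher in Pilo. Gad1 no longer passed without Pilo replicate 2 or Mock replicate 1, 2 or 4 (adjusted p up to 0.0940), nor Gad2 without Pilo replicate 3 or 4 or Mock replicate 1 or 2 (adjusted p up to 0.0804). With the replicate number as a block, a fit that called 23.8% of all genes higher, the markers higher in Pilo were 6 of 7 GABAergic, 4 of 7 striatal, 4 of 5 oligodendrocyte lineage, 3 of 5 astrocyte, 3 of 5 endothelial and mural and 0 of 5 microglia ones. In that fit 1 striatal marker was lower. The part of these cells in the results below was not tested.

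Levels of different genes were compared per kilobase of annotated exon, in the second table, because the first counted few reads of Pde2a. The lengths are those of GENCODE vM21, while the annotation behind the counts is not given. The order therefore depends on lengths that may differ from those counted. Pde2a, a phosphodiesterase that cyclic GMP stimulates and that acts on both messengers, had the highest level, 143.8 ± 19.0 CPM per kb in Pilo and 114.7 ± 19.6 CPM per kb in Mock (SD, n = 4 each). Prkar1a, a type I regulatory subunit of protein kinase A, came next at 101.3 ± 6.38 CPM per kb in Pilo and 101.3 ± 6.01 CPM per kb in Mock, and the Mock ranges of these neighbours overlapped. Prkar1b followed at 59.5 ± 4.09 CPM per kb in Pilo and 60.3 ± 5.26 CPM per kb in Mock, with a range apart from its neighbours on both sides in Mock. Pde1b, a calcium-calmodulin phosphodiesterase, and Adcy1, a calcium-calmodulin stimulated cyclase, overlapped each other at 44.8 ± 4.22 and 45.7 ± 3.60 CPM per kb in Pilo, and at 49.0 ± 3.72 and 44.9 ± 2.95 CPM per kb in Mock. From Prkaca to Prkacb, the genes ranked 6 to 14 each overlapped their neighbour, between 34.3 and 24.3 CPM per kb in Mock. At the low end were Adcy10, Adcy4, Pde6h, Pde3a, Pde6b and Pde1c, all with a mean under 1 CPM per kb in both groups. The photoreceptor genes Pde6b, Pde6c, Pde6g and Pde6h and the retinal cyclase Gucy2e lay in the same low range, so their changes rest on few reads.

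**Figure D1:**
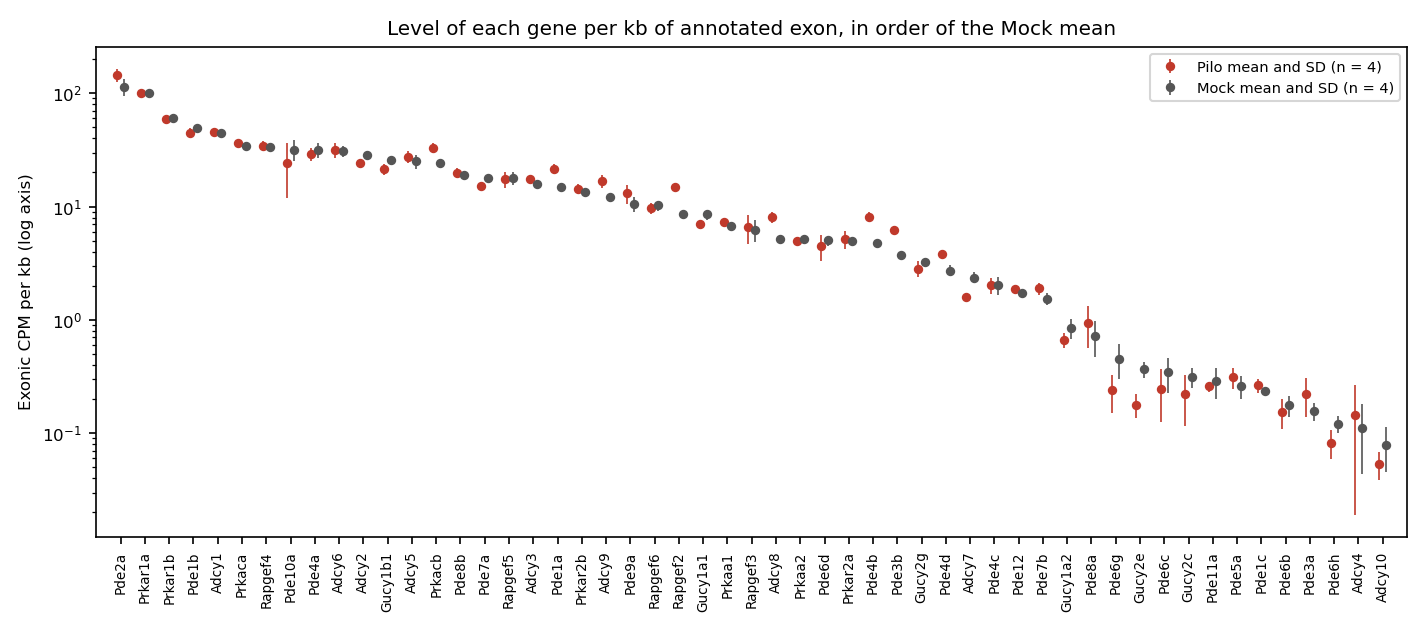
Exonic level of the 53 genes in CPM per kb of annotated exon (log axis, second table), mean and SD of 4 Pilo (red, left of each pair) and 4 Mock (grey) libraries, in order of the Mock mean. Pde2a and Prkar1a lead at 143.8 and 101.3 CPM per kb in Pilo and 114.7 and 101.3 CPM per kb in Mock.

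In exonic counts, 10 of the 53 genes rose in Pilo and 5 fell. The genes that rose were phosphodiesterases of cyclic AMP (Pde4b, Pde4d and Pde7b), phosphodiesterases of both messengers (Pde1a and Pde3b), 3 adenylyl cyclases (Adcy3, Adcy8 and Adcy9), the catalytic subunit gene Prkacb and the exchange factor gene Rapgef2. Those that fell were Pde7a, Pde6g, Adcy7, Gucy1a1 and Gucy2e. The test was the quasi-likelihood F-test of edgeR, with p-values adjusted after Benjamini-Hochberg over all genes tested and a threshold of 0.05. It called 31.8% of 19176 genes, 15.6% higher and 16.2% lower, while it called 28.3% of the 53, so the share of genes called was not above that of all genes tested. The median log2 fold change was 0.05 for the 53 genes and 0.00 for all genes tested. The exonic counts of the second table called 8 of the 53 higher and 7 lower, against 34% of 14239 genes, and exonic plus intronic counts 11 higher and 5 lower, against 37.2% of 14816 genes. In bulk nuclei, fewer cells of a type and less RNA per cell cannot be told apart.

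With the replicate number as a block, 14 of the 53 genes were higher and 8 lower, against 47% of all genes called by that fit, and none of the 15 calls was lost. Leaving out 1 library left 8 to 10 genes higher and 2 to 5 lower. The lower count was 3 without Pilo replicate 2, Pilo replicate 3 or Mock replicate 4, and 2 without Pilo replicate 4, Mock replicate 1 or Mock replicate 3. The fits that left out a library had no block. Some of them ended the calls of Adcy3, Gucy1a1, Pde6g, Pde7a and Pde7b. With the block and all 8 libraries, edgeR gave these genes adjusted p of 0.00729, 0.00221, 0.00866, 0.00340 and 0.00115.

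**Figure D2:**
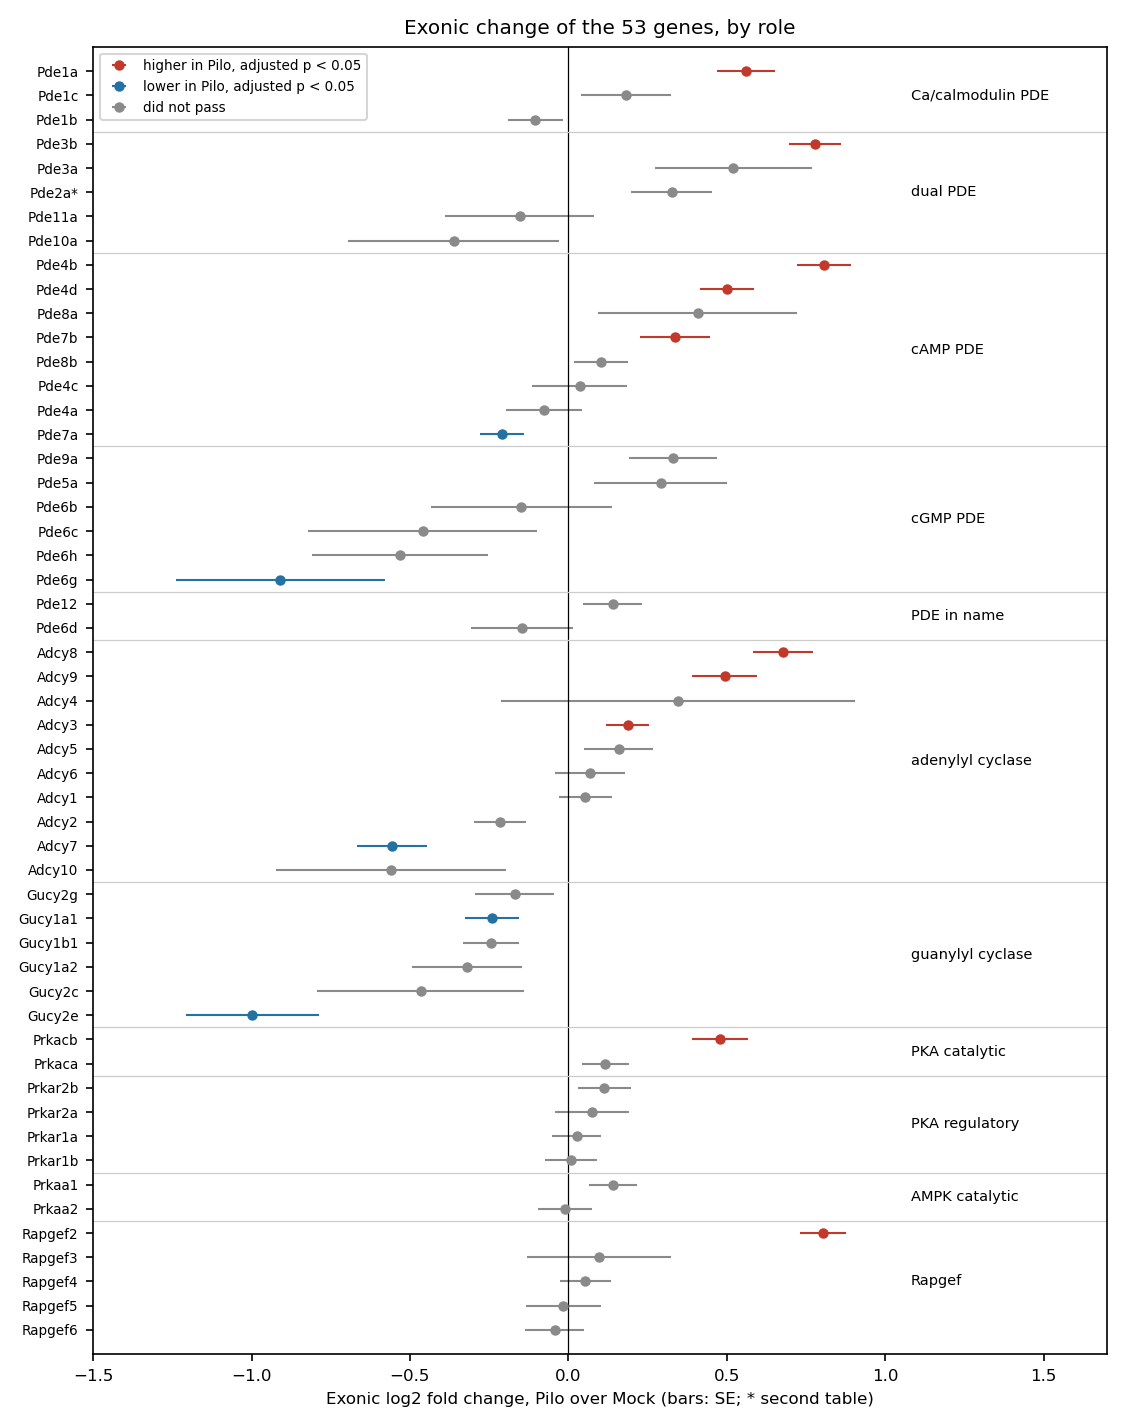
Exonic log2 fold change, Pilo over Mock, of the 53 genes by role, with SE (4 libraries a group; Pde2a from the second table). Red points passed the test higher (10), blue points lower (5), and Rapgef2, Pde4b and Pde3b reach 0.80, 0.81 and 0.78.

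Among phosphodiesterases, Pde4b rose; it encodes a cyclic AMP-specific enzyme of the rolipram-sensitive family (chromosome 4, 102087543 to 102607259, GRCm38). Pde4b had exonic levels of 89.8, 74.6, 74.6 and 84.7 CPM in Pilo libraries 1 to 4, against 47.9, 41.5, 48.9 and 46.9 CPM in Mock libraries 1 to 4. Every Pilo library was above every Mock library. The log2 fold change was 0.81 (SE 0.08, adjusted p = 2.08e-05 by edgeR); with intronic counts added it was 0.51, still past the test. Pde4d, of the same family, had 42.1, 45.1, 43.5 and 41.7 CPM in Pilo and 30.5, 28.4, 35.0 and 27.8 CPM in Mock. These groups did not overlap, and the exonic log2 fold change was 0.50 (SE 0.09, adjusted p = 0.000669). Most Pde4d reads were intronic, and with intronic counts added the log2 fold change was 0.18 and no longer passed (adjusted p = 0.121). The other members of the family, Pde4a and Pde4c, had exonic log2 fold changes of -0.08 and 0.04 and did not pass.

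Pde3b, which cyclic GMP inhibits and which is best known for its control by insulin in fat cells, had exonic levels of 57.1, 57.5, 47.6 and 56.7 CPM in Pilo and 32.2, 32.8, 29.7 and 32.9 CPM in Mock. All Pilo libraries exceeded all Mock libraries, and Pilo replicate 3 was the lowest of its group. Its log2 fold change was 0.78 (SE 0.08, adjusted p = 2.08e-05). Pde1a, a calcium-calmodulin activated enzyme, had 129, 136, 109 and 112 CPM in Pilo and 85.9, 88.8, 82.1 and 72.5 CPM in Mock, again with no overlap. It rose by 0.56 on the log2 scale (SE 0.09, adjusted p = 0.000475), whereas Pde1b and Pde1c had exonic log2 fold changes of -0.10 and 0.18 and did not pass.

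The Pde7 pair, both cyclic AMP-specific, went opposite ways by small amounts. Pde7b had exonic levels of 23.8, 18.9, 24.6 and 22.2 CPM in Pilo and 17.1, 15.1, 20.1 and 18.6 CPM in Mock; Pilo replicate 2 lay inside the Mock range. Its log2 fold change was 0.34 (SE 0.11, adjusted p = 0.0332). Pde7a had 108, 115, 113 and 110 CPM in Pilo and 131, 126, 138 and 121 CPM in Mock, without overlap, and its fitted log2 change was -0.21 (SE 0.07, adjusted p = 0.0343). Leaving out Pilo replicate 1, 3 or 4 or Mock replicate 1, 2 or 4 ended the Pde7b call (adjusted p 0.0513 to 0.0983), as did the exonic counts of the second table (0.0534). Leaving out Pilo replicate 1, 3 or 4 or Mock replicate 1, 2 or 3 ended the Pde7a call (adjusted p 0.0578 to 0.137), as did adding intronic counts (0.102) and using no count filter (0.0778).

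Pde6g, the inhibitory subunit of the photoreceptor phosphodiesterase, had exonic levels of 0.343, 0.587, 0.765 and 0.398 CPM in Pilo and 0.796, 0.897, 1.46 and 0.738 CPM in Mock. Pilo replicate 3 overlapped the Mock range, and the log2 fold change was -0.91 (SE 0.33, adjusted p = 0.0490). The call was lost without any 1 library other than Pilo replicate 3 (adjusted p 0.0504 to 0.201), with RLE size factors (0.0515) and with DESeq2 (0.0654). The remaining cyclic GMP phosphodiesterases, Pde5a, Pde6b, Pde6c, Pde6h and Pde9a, did not pass.

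Pde2a (chromosome 7, 101421691 to 101512827, GRCm38) could not be read from the first table. There it held 162 to 242 counts in Pilo libraries and 162 to 236 counts in Mock libraries, while the gene model Gm45837 on the same strand, which shares 64.3% of Pde2a's exon length, held 0 to 1. In the second table Pde2a had 22837 to 29305 exonic counts in Pilo and 16669 to 23373 in Mock. The Mock means of the other 52 genes differed little between the tables, with a ratio of 0.968 to 1.01. How reads shared by overlapping genes were counted is not given in the sources used here.

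In that second table Pde2a had exonic levels of 793, 779, 1015 and 951 CPM in Pilo libraries 1 to 4 and 600, 601, 809 and 810 CPM in Mock libraries 1 to 4. Within each replicate number the Pilo library was the higher, but the groups overlapped because libraries 3 and 4 were high in both. The log2 fold change was 0.33 (SE 0.13, adjusted p = 0.0684); with the replicate block it was 0.33 (SE 0.05, adjusted p = 6.3e-05). Leaving out 1 library, the unblocked log2 fold change ran from 0.25 without Pilo replicate 3 (adjusted p = 0.171) to 0.40 without Mock replicate 3 (adjusted p = 0.0494). It passed the test without Mock replicate 3 or Mock replicate 4 (adjusted p = 0.0458), and the highest adjusted p was 0.183, without Mock replicate 1.

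Pde10a, a phosphodiesterase of both messengers known for its high level in striatal projection neurons, had first-table exonic levels of 517, 209, 216 and 230 CPM in Pilo and 409, 352, 463 and 283 CPM in Mock. Pilo replicate 1 was the highest of all 8 libraries and the other Pilo libraries were below every Mock library. The log2 fold change was -0.36 (SE 0.33, adjusted p = 0.467), and without Pilo replicate 1 it was -0.79 (adjusted p = 0.00193). The striatal marker sum in Pilo replicate 1 was 257 CPM, the lowest of the Pilo libraries. Pde11a, another phosphodiesterase of both messengers, had 1.31, 1.44, 1.24 and 1.13 CPM in Pilo and 2.02, 1.06, 1.38 and 1.24 CPM in Mock. It did not pass.

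**Figure D3:**
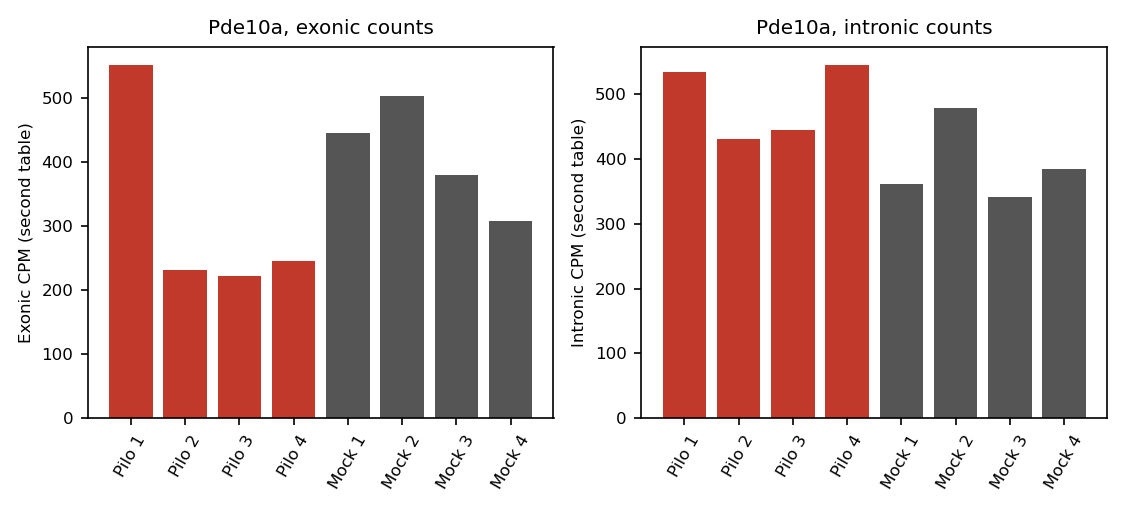
Pde10a in each library (second table, CPM), exonic at left and intronic at right, Pilo in red and Mock in grey. Exonic Pde10a is 551 CPM in Pilo replicate 1 and 222 to 245 CPM in the other Pilo libraries, against 308 to 503 CPM in Mock.

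Of the 10 adenylyl cyclases, 3 rose and 1 fell in exonic counts, beside 15.6% of all genes called higher and 16.2% lower. Adcy8, which calcium with calmodulin stimulates, had 63.0, 59.7, 54.9 and 71.6 CPM in Pilo and 43.9, 39.2, 37.0 and 35.5 CPM in Mock. No Pilo library overlapped the Mock range, and the log2 fold change was 0.68 (SE 0.09, adjusted p = 0.000165). The other calmodulin-stimulated cyclase of forebrain, Adcy1, had 583, 564, 494 and 510 CPM in Pilo and 568, 494, 507 and 505 CPM in Mock. Its groups overlapped almost wholly, and its fitted change was 0.05 on the log2 scale (SE 0.08, adjusted p = 0.676).

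Adcy9, an isoform only weakly sensitive to forskolin, had exonic levels of 90.3, 91.2, 66.7 and 80.7 CPM in Pilo and 60.7, 51.3, 63.4 and 58.2 CPM in Mock. Pilo replicate 3 was the lowest Pilo library but stayed above the highest Mock library, and the log2 fold change was 0.49 (SE 0.10, adjusted p = 0.00257). Adcy3, the cyclase of olfactory and neuronal cilia, had 100, 110, 97.1 and 104 CPM in Pilo and 91.3, 89.6, 88.0 and 92.5 CPM in Mock, without overlap. Its log2 fold change was 0.19 (SE 0.07, adjusted p = 0.0492), and the call was lost without Pilo replicate 2 or 4 or any 1 Mock library (adjusted p 0.0678 to 0.126). It was also lost with no count filter (0.144), a minimum count of 50 (0.0562), limma-voom (0.0515) and the exonic counts of the second table (0.0712). Of Adcy3's exon length, 22.1% is shared with Cenpo on the opposite strand, and the strand setting of the counting is not given in the sources used here.

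Adcy7, an isoform that G protein beta-gamma subunits stimulate and that is prominent in immune cells, was the cyclase that fell. It had exonic levels of 10.2, 10.3, 8.80 and 10.7 CPM in Pilo and 15.6, 15.9, 12.3 and 15 CPM in Mock. All Pilo libraries were below all Mock libraries, and the log2 fold change was -0.56 (SE 0.11, adjusted p = 0.00201). Over the same libraries the microglia marker sum was 11.5 to 19.5 CPM in Pilo and 9.64 to 17.0 CPM in Mock. Adcy2, of the same beta-gamma stimulated class, had 105, 89.2, 88.3 and 97.2 CPM in Pilo and 121, 101, 114 and 105 CPM in Mock; Pilo replicate 1 lay inside the Mock range. Its log2 fold change of -0.22 (SE 0.08) had an adjusted p of 0.0624; it was -0.27 and past the test without Pilo replicate 1 (adjusted p = 0.0250), and past it with the replicate block (adjusted p = 0.00331) and in the second table.

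Both subunits of the nitric oxide receptor cyclase were lower on average in Pilo. Gucy1a1, the alpha subunit, had exonic levels of 47.5, 42.1, 47.0 and 48.9 CPM in Pilo and 59.4, 47.9, 52.9 and 59.0 CPM in Mock, and only Pilo replicate 4 reached the Mock range. It fell by 0.24 on the log2 scale (SE 0.09, adjusted p = 0.0471), a call lost without any 1 library except Mock replicate 2 (adjusted p 0.0578 to 0.168), and also with RLE size factors (0.0559), no count filter (0.0519) and limma-voom (0.0569). Gucy1b1, the beta subunit, had 88.8, 68.2, 82.2 and 76.0 CPM in Pilo and 101, 84.8, 94.3 and 92.9 CPM in Mock, with Pilo replicate 1 inside the Mock range. Its log2 fold change was -0.24 (SE 0.09, adjusted p = 0.0519 by edgeR). With the replicate block it was -0.25 (adjusted p = 0.000808). In second-table exons it was -0.27 and passed without a block (adjusted p = 0.0361). The membrane cyclase Gucy2e, known from photoreceptors, had 2.03, 1.6, 1.43 and 1.13 CPM in Pilo and 3.62, 3.17, 3.17 and 2.45 CPM in Mock. These groups did not overlap, and the log2 fold change was -0.997 (SE 0.21, adjusted p = 0.00270).

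Among the kinase genes, Prkacb, a catalytic subunit of protein kinase A (chromosome 3, 146729574 to 146812990, GRCm38), had exonic levels of 315, 256, 257 and 266 CPM in Pilo and 207, 179, 212 and 188 CPM in Mock. Pilo replicate 1 was the highest and no Pilo library reached down to the Mock range; the log2 fold change was 0.48 (SE 0.09, adjusted p = 0.00129). The other catalytic gene, Prkaca, had 82.2, 86.7, 93.6 and 80.7 CPM in Pilo and 78.5, 77.9, 85.6 and 74.5 CPM in Mock. Its groups overlapped, and its log2 fold change was 0.12 (SE 0.07, adjusted p = 0.262).

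None of the 4 regulatory subunit genes passed the exonic test by edgeR, and 0 had an unadjusted p under 0.05. Prkar1a had 446, 403, 385 and 411 CPM in Pilo and 425, 380, 423 and 388 CPM in Mock (log2 fold change 0.03, SE 0.08, adjusted p = 0.838 by edgeR). Prkar1b had 218, 193, 225 and 209 CPM in Pilo and 213, 195, 234 and 198 CPM in Mock (log2 fold change 0.01, SE 0.08, adjusted p = 0.949 by edgeR). Prkar2b had 43.5, 50.3, 54.9 and 48.1 CPM in Pilo and 48.0, 42.2, 46.4 and 45.3 CPM in Mock (log2 fold change 0.11, SE 0.08, adjusted p = 0.332 by edgeR). In all of these the groups overlapped, and Prkar2a had a log2 fold change of 0.07 (SE 0.12). Leaving out single libraries turned the sign of Prkar1a without Pilo replicate 1 (-0.01) and without Mock replicate 2 (-0.00), and that of Prkar1b without Pilo replicate 1, Pilo replicate 3, Mock replicate 2 or Mock replicate 4 (-0.03 to -0.00), so neither had a direction.

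Among the Rap exchange factors, Rapgef2, which carries a PDZ domain and activates Rap in neurons, had 185, 194, 204 and 198 CPM in exons in Pilo and 117, 103, 117 and 110 CPM in Mock. No Pilo library came near the Mock range; the log2 fold change was 0.80 (SE 0.07, adjusted p = 7.13e-06), and it was past the test in all 16 alternatives run. The direct cyclic AMP sensor Rapgef4 had 248, 213, 204 and 201 CPM in Pilo and 211, 212, 209 and 201 CPM in Mock, and the groups overlapped. Its fitted change was 0.05 on the log2 scale (SE 0.08, adjusted p = 0.659). Without Pilo replicate 1 that value was -0.02. Rapgef3, Rapgef5 and Rapgef6 did not pass, at exonic log2 fold changes of 0.10, -0.02 and -0.04.

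**Figure D4:**
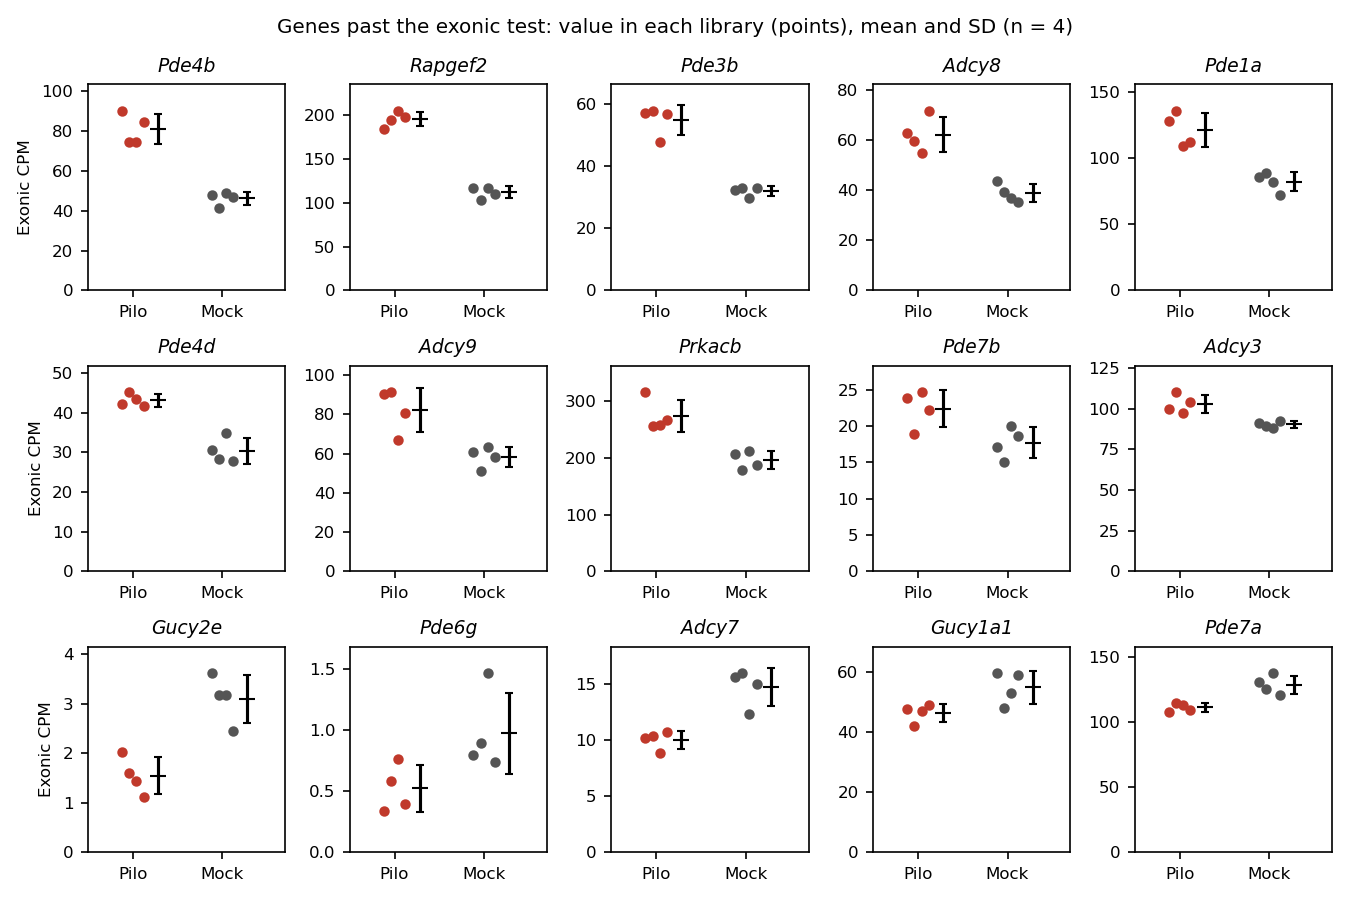
Exonic CPM in each Pilo (red) and Mock (grey) library for the 15 genes past the exonic test, with mean and SD (n = 4); each vertical axis starts at 0. The groups overlap in Pde7b, Pde6g and Gucy1a1 and are apart in the other 12.

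Some genes of low level were highest in the same libraries of each group. Any part of other cell types in this was not tested. Pde3a had 2.03, 2.19, 4.18 and 2.29 CPM in exons in Pilo and 1.66, 1.79, 2.34 and 1.61 CPM in Mock. Its highest value in each group fell in replicate 3, where the endothelial and mural marker sum was also highest, 72.2 CPM in Pilo and 29.4 CPM in Mock. Adcy4 was also highest in replicate 3 of each group, with 0.257, 0.424, 1.43 and 0.398 CPM in Pilo and 0.232, 0.416, 0.906 and 0.369 CPM in Mock. Pde8a had 2.71, 1.99, 4.94 and 4.77 CPM in Pilo and 1.82, 2.05, 3.14 and 3.82 CPM in Mock, highest in the libraries 3 and 4 that held the most glial marker signal. Pde3a, Adcy4 and Pde8a did not pass the exonic test. With the replicate block, Pde3a (log2 fold change 0.50, adjusted p = 0.0230), Pde8a (0.40, adjusted p = 0.0436), Pde9a (0.32, adjusted p = 0.000406) and Adcy5 (0.16, adjusted p = 0.0176) were higher, and Gucy1a2 (-0.32, adjusted p = 0.0406) was lower.

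Promoter windows of 250 bases upstream of each annotated start were searched on both strands for the cyclic AMP response element TGACGTCA, its half-site TGACG, which lies within it, and the AP-1 motif TGANTCA, because CREB and AP-1 are factors through which cyclic AMP and activity reach genes. RefSeq windows (GRCm38.p6) were found for 44 of the 53 genes, 85 windows in all. Windows were found for 8 of the genes that rose, while Adcy8 and Pde3b had none and were not searched. The half-site was in 22.4% of these and in 22.2% of the 18 windows of genes that rose, against 17.8% of 32851 windows of all genes. The full element was in 1 window of the 85 (1.18%), against 1.55% of all windows, and that window belonged to Prkar1a, which did not pass. The AP-1 motif was in 4.71% of the 85 windows and in 0 of the 18, against 6.75% of all windows. Among the 8 genes that rose and had windows, the half-site was found for Adcy9, Pde1a, Pde4b and Prkacb. By gene that is 50%, against 38.6% of the 44 genes and 19.8% of all genes with windows. Shares by gene also depend on the number of windows, 85 for the 44 genes and 32851 for all 27025 genes. Shown 5′ to 3′ on the gene's strand, up to the first annotated exon, are the windows with a motif that lies in that stretch: Adcy9 at chr16:4420499-4420748 (minus strand), Pde1a at chr2:80039030-80039152 (minus), Prkacb at chr3:146812991-146813196 (minus) and, for the full element, Prkar1a at chr11:109650699-109650920 (plus). Capitals mark the half-site in either orientation (TGACG or CGTCA) and, in Prkar1a, also the full element, which begins 49 bases before the start.
Adcy9: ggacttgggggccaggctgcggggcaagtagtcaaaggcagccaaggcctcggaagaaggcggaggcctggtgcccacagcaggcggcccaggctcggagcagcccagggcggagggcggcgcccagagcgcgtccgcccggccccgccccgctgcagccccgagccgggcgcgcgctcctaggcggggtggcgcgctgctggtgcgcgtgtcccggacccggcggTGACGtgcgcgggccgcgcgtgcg
Pde1a: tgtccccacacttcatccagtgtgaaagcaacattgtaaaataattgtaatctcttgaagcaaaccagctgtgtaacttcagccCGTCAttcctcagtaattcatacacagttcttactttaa
Prkacb: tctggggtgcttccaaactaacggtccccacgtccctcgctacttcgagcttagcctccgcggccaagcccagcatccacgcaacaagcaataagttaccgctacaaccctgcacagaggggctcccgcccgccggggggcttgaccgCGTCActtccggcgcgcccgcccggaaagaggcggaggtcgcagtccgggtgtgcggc
Prkar1a: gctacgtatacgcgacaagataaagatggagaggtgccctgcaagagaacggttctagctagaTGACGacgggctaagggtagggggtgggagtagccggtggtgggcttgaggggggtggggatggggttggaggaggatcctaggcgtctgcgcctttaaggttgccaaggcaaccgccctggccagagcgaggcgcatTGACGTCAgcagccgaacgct
A match describes the letters only; no binding was measured here.

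Intronic counts, which in nuclear RNA come from transcripts not yet spliced or with retained introns, could be tested for 51 of the 53 genes. Gucy2g held 0 intronic counts in every library and Adcy4 too few. In Pilo 10 genes were higher and 5 lower, 29.4% of the 51, against 41.4% of 13318 genes tested (19.6% higher and 21.9% lower). The median log2 fold change was 0.05 for these genes and -0.00 for all genes tested. Exonic and intronic changes come from the same libraries, so they are not independent of each other. With the replicate block, 17 genes were higher and 11 lower, against 56.9% of all genes. Leaving out 1 library gave 9 to 13 higher and 4 to 7 lower.

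By first-table exons, Adcy8, Adcy9, Pde1a, Pde3b, Prkacb, Rapgef2 and Pde7b passed higher in both regions, though Pde7b did not in second-table exons (adjusted p = 0.0534 by edgeR). Their intronic log2 fold changes were 0.62 for Adcy8 (SE 0.10), 0.63 for Adcy9 (SE 0.11), 0.53 for Pde1a (SE 0.10), 0.60 for Pde3b (SE 0.11), 0.71 for Prkacb (SE 0.13), 0.58 for Rapgef2 (SE 0.10) and 0.65 for Pde7b (SE 0.16). In introns the Pilo libraries were above all Mock libraries for each of these but Pde7b. Adcy8 is one example, with intronic levels of 279, 265, 234 and 262 CPM in Pilo and 189, 179, 159 and 150 CPM in Mock. Pde2a passed in introns, at 804, 836, 1176 and 1088 CPM in Pilo and 594, 632, 816 and 796 CPM in Mock; Pilo replicate 1 lay inside the Mock range. Its intronic log2 fold change was 0.46 (SE 0.14, adjusted p = 0.0141), and 0.36 without Pilo replicate 3 (adjusted p = 0.0507).

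Pde6g and Gucy1a1 passed lower in both regions by the exons of either table, and Gucy1b1 by second-table exons only (adjusted p = 0.0361 by edgeR). Pde6g had intronic levels of 0.859, 1.46, 1.34 and 1.25 CPM in Pilo and 2.21, 4.15, 3.41 and 2.92 CPM in Mock, with no overlap, and fell by 1.38 on the log2 scale (SE 0.29, adjusted p = 0.00137). Gucy1a1 had 44.0, 48.4, 32.0 and 43.5 CPM in introns in Pilo and 66.4, 54.8, 42.9 and 61.1 CPM in Mock, with overlap, and fell by 0.42 on the log2 scale (SE 0.15, adjusted p = 0.0318). That call was lost without Pilo replicate 3 or 4 or Mock replicate 1, 2 or 4 (adjusted p 0.0523 to 0.11).

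With the replicate block, further genes passed in introns. Adcy3 (adjusted p = 0.00681), Adcy5 (0.0441), Pde1c (0.0191), Pde4b (0.000816), Pde4d (0.00248), Pde8a (0.00595) and Rapgef3 (0.00994) were higher by edgeR's adjusted p in that fit. Adcy7 (0.0210), Pde1b (0.0142), Pde6c (0.0496), Pde6d (0.0185), Prkaca (0.0137) and Rapgef5 (0.0234) were lower by the same measure.

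Whether a gene's exonic change differed from its intronic change was tested as an interaction in the second table. The difference passed for 10 of 51 genes, 6 with a higher exonic than intronic change and 4 with a lower one. That is 19.6%, against 26.2% of 13047 genes tested (13.5% higher and 12.8% lower), and the median difference was -0.00 for the 51 genes and 0.01 for all. With the replicate block 10 were higher and 8 lower, against 39.3% of all genes. Only the differences of Prkaa2 and Gucy1b1 passed in all 11 alternatives run.

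Prkaa2 and Prkar1b fell in introns, by 0.64 and 0.38 on the log2 scale, with no exonic change past the test. Prkaa2 had intronic levels of 17.3, 16.5, 13.9 and 21.0 CPM in Pilo and 28.2, 26.0, 21.5 and 31.6 CPM in Mock, with no overlap, and second-table exonic levels of 43.1, 41.3, 38.8 and 36.4 CPM in Pilo and 45.5, 42.2, 38.2 and 37.7 CPM in Mock. The exonic change was 0.61 above the intronic one on the log2 scale (SE 0.15, adjusted p = 0.0101 by edgeR). Prkar1b had intronic levels of 215, 240, 262 and 255 CPM in Pilo and 300, 329, 315 and 322 CPM in Mock, also apart, and exonic levels of 233, 243, 206 and 224 CPM in Pilo and 234, 256, 212 and 217 CPM in Mock. Its difference was 0.37 (SE 0.09, adjusted p = 0.0115 by edgeR), and 0.31 without Pilo replicate 2 (adjusted p = 0.0588).

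Gucy1b1 fell more in introns than in exons. It had intronic levels of 84.0, 72.3, 54.3 and 63.3 CPM in Pilo and 129, 114, 92.0 and 103 CPM in Mock, without overlap. Its second-table exonic levels were 94.7, 87.9, 72.3 and 80.8 CPM in Pilo and 110, 102, 91.6 and 101 CPM in Mock, with Pilo replicate 1 inside the Mock range. The intronic log2 fold change was -0.67 (SE 0.14, adjusted p = 0.00113), and the exonic change lay 0.41 above it (SE 0.08, adjusted p = 0.00205).

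Pde4b, which rose in exons, had overlapping intronic levels of 187, 142, 129 and 187 CPM in Pilo and 143, 122, 92.5 and 169 CPM in Mock, against second-table exonic levels of 95.8, 79.8, 79.0 and 90.1 CPM in Pilo and 51.9, 52.9, 44.8 and 50.9 CPM in Mock. Its difference was 0.47 (SE 0.13, adjusted p = 0.0176 by edgeR), and the call was lost without Pilo replicate 2, Pilo replicate 3 or Mock replicate 1 (adjusted p 0.0545 to 0.0631). Prkaca had intronic levels of 96.8, 88.1, 102 and 94.2 CPM in Pilo and 99.8, 122, 114 and 111 CPM in Mock, and exonic levels of 87.2, 99.4, 91.6 and 85.4 CPM in Pilo and 84.7, 92.4, 83.8 and 80.7 CPM in Mock. Each region overlapped between groups, with a difference of 0.32 (SE 0.08, adjusted p = 0.0136 by edgeR), and 0.21 without Pilo replicate 2 (adjusted p = 0.0528). Pde9a, the high-affinity cyclic GMP phosphodiesterase, had intronic levels of 70.7, 92.9, 98.2 and 79.1 CPM in Pilo and 70.6, 78.6, 94.0 and 75.5 CPM in Mock, and exonic levels of 37.5, 48.5, 57.8 and 41.3 CPM in Pilo and 32.6, 35.4, 45.6 and 36.2 CPM in Mock. Both overlapped, with a difference of 0.21 (SE 0.07, adjusted p = 0.0451 by edgeR) that was lost without any 1 library but Mock replicate 3 (adjusted p 0.0568 to 0.147).

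In the other direction, Gucy1a2, the second alpha subunit of the nitric oxide receptor cyclase, had intronic levels of 99.2, 154, 172 and 140 CPM in Pilo and 83.8, 86.4, 108 and 102 CPM in Mock, and exonic levels of 5.22, 4.36, 3.53 and 4.62 CPM in Pilo and 6.55, 6.05, 3.94 and 5.99 CPM in Mock. Only Pilo replicate 1 lay inside the Mock range in introns. Its intronic log2 fold change was 0.57 (SE 0.15, adjusted p = 0.00550) and the exonic change was 0.88 below it (difference -0.88, SE 0.28, adjusted p = 0.0404). The difference was lost without Pilo replicate 2, 3 or 4 or Mock replicate 1 or 2 (adjusted p 0.0653 to 0.118).

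Pde10a had intronic levels of 533, 430, 444 and 545 CPM in Pilo and 361, 478, 341 and 384 CPM in Mock, overlapping at Mock replicate 2. The second-table exonic levels were 551, 231, 222 and 245 CPM in Pilo and 444, 503, 380 and 308 CPM in Mock. Pilo replicates 2, 3 and 4 were thus low in exons and not in introns, while Pilo replicate 1 was high in both. Its intronic log2 fold change was 0.32 (SE 0.12, adjusted p = 0.0414), and the difference was -0.80 (SE 0.23, adjusted p = 0.0274). The intronic call was lost without Pilo replicate 1 or 4 or Mock replicate 1, 3 or 4 (adjusted p 0.0787 to 0.128). The difference was lost without Pilo replicate 2, 3 or 4 or Mock replicate 1, 2 or 3 (adjusted p 0.0656 to 0.0892).

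Prkacb rose in both regions and more in introns, with intronic levels of 286, 209, 202 and 213 CPM in Pilo and 158, 158, 114 and 126 CPM in Mock, against exonic levels of 336, 274, 272 and 283 CPM in Pilo and 224, 230, 193 and 204 CPM in Mock. Neither region overlapped, and the difference was -0.26 (SE 0.07, adjusted p = 0.0194 by edgeR), lost without Mock replicate 3 or Mock replicate 4 (adjusted p 0.0510 to 0.0520). Rapgef3 had intronic levels of 20.1, 46.2, 27.6 and 49.9 CPM in Pilo and 20.2, 24.6, 25.0 and 35.8 CPM in Mock, and exonic levels of 28.4, 47.1, 35.1 and 55.7 CPM in Pilo and 30.3, 36.4, 40.0 and 51.6 CPM in Mock. Both regions overlapped, with a difference of -0.34 (SE 0.10, adjusted p = 0.0232 by edgeR) that was lost without Pilo replicate 2, Pilo replicate 4 or Mock replicate 3 (adjusted p 0.0503 to 0.0706). Of its exon length, 5.54% and 3.72% are shared with 2 antisense genes, Rapgef3os2 and Rapgef3os1. Prkar1b and Pde9a, whose differences also passed, have such overlaps too. Prkar1b shares 8.95% of its exon length with Gm15672 on the same strand. Pde9a shares 4.44% and 3.9% with the antisense genes AC166172.5 and AC166172.6.

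Leaving out 1 library gave 2 to 7 genes with a higher exonic change and 1 to 5 with a lower one. The higher count was 2 without Pilo replicate 2. The lower count was 1 without Pilo replicate 4 and 2 without Pilo replicate 2, Pilo replicate 3 or Mock replicate 1, 2 or 3. With the block, Pde4d, Prkar2b, Rapgef2 and Rapgef5 were added to the higher side (adjusted p of 0.00545, 0.0343, 0.00642 and 0.0237 by edgeR), and Adcy2, Adcy9, Pde7a and Pde7b to the lower (adjusted p of 0.00207, 0.0391, 0.0464 and 0.00154 by edgeR).

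**Figure D5:**
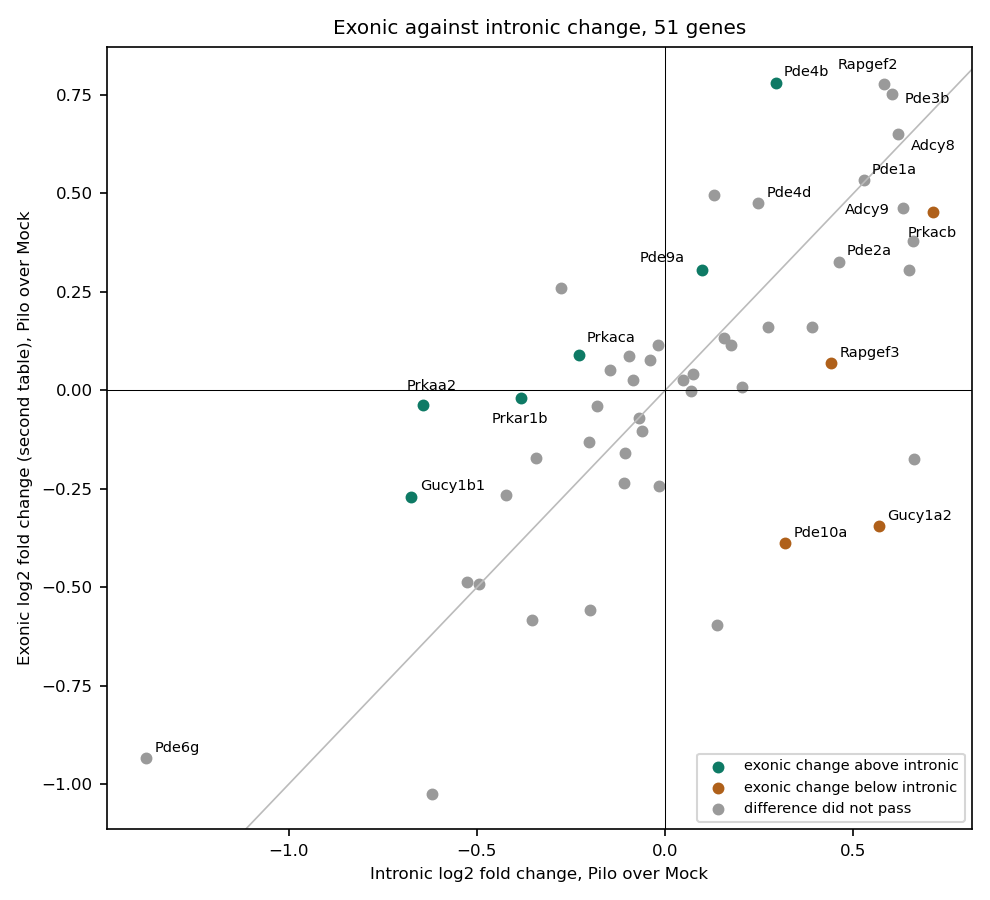
Exonic (vertical axis, second table) against intronic (horizontal axis) log2 fold change, Pilo over Mock, of 51 genes, with the line of equal change; coloured points passed the test of the difference. Prkaa2 lies 0.61 above the line and Pde10a 0.80 below it in that test.

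Other genes of the pathway were looked at in 6 lists, by exonic counts. Each list's counts stand beside 31.8% of all genes called without the replicate block (15.6% higher and 16.2% lower) and 47% called with it (23.8% higher and 23.2% lower), and no list was tested against those shares. Of 19 receptors that couple to the stimulatory G protein, 6 rose and 1 fell, with a median log2 fold change of 0.26 against 0.00 for all genes tested. With the block 7 were higher and 2 lower. With intronic counts added only 15 of the 19 were tested, and 4 of those were higher and 2 lower. Gpr3, a receptor active without ligand, rose by 1.75 on the log2 scale (SE 0.14), Adrb1, the beta-1 adrenergic receptor, by 0.80 (SE 0.09), Adcyap1r1, the PACAP receptor, by 0.47 (SE 0.08) and Vipr1, a VIP receptor, by 0.43 (SE 0.08). Gpr12, named after its value was seen, was the 1 that fell (-0.65, SE 0.12); it is a close relative of Gpr3. Of 7 G protein alpha subunits that act on cyclases, Gnai3, an inhibitory one, rose by 0.51 (SE 0.08) and Gnao1 by 0.33 (SE 0.10), and 0 fell (median 0.20). The Gnao1 call was lost without Pilo replicate 3 or 4 or Mock replicate 1 or 2 (adjusted p up to 0.0955), and with the replicate block, which called 23.8% of all genes higher, 5 of the 7 were higher.

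Of 12 A-kinase anchoring proteins tested, which tether protein kinase A to sites in the cell, 2 rose and 2 fell, at a median of -0.14; with the replicate block 2 were higher and 5 lower. Akap12 rose by 1.27 (SE 0.22) and Akap1, the mitochondrial anchor, fell by 0.47 on the log2 scale (SE 0.08). Akap5, an anchor at synapses, rose by 0.23 (SE 0.08), a call lost without any 1 library except Mock replicate 3 (adjusted p up to 0.138), and Akap10 fell by 0.38 (SE 0.12), lost without any 1 library except Pilo replicate 3 or Mock replicate 2 (adjusted p up to 0.0887). Among 7 genes of nitric oxide synthesis, natriuretic receptors and cyclic GMP kinases, Npr3, the natriuretic peptide clearance receptor, rose by 0.73 (SE 0.10) and Prkg1 by 0.38 (SE 0.10), and 0 fell (median 0.38); 3 were higher with the block and 3 with intronic counts added. Of 7 cyclic nucleotide gated or modulated channels tested, Hcn4 rose by 0.35 (SE 0.12) and 0 fell (median 0.10), a call lost without Pilo replicate 1 or 2 or Mock replicate 1, 3 or 4 (adjusted p up to 0.0912). With the replicate block 2 of these channel genes were higher and 2 lower, and with intronic counts added 2 were higher and 1 lower. The 3 protein kinase inhibitor genes Pkia, Pkib and Pkig had log2 fold changes of 0.19, 0.23 and 0.15, and none passed edgeR's adjusted test with all 8 libraries and no block (Pkia was the 1 with an unadjusted p under 0.05). In that list 1 gene passed higher with the replicate block, without Mock replicate 3, with intronic counts added and with DESeq2.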

How the data were processed

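Nuclear RNA counts of 4 Pilo and 4 Mock libraries were used as deposited by the authors: whole-number read counts per gene, exonic in the first table (55471 Ensembl identifiers, 55144 matched to a symbol) and exonic and intronic in the second (18513 Entrez identifiers, 18507 matched). Per the labels' protocols the libraries were directional and polyadenylated. Per the submitters' processing notes, the genome was mm10 and the tools included HTSeq 0.11.2, STAR 2.7.1a, Trimmomatic 0.39 and edgeR in R 4.1.1, their roles unnamed. Their annotation, strand setting and rule for telling intronic from exonic reads were not given in the sources used here. Overlapping or antisense genes may therefore share reads.

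The members, gene lists and tests were chosen with earlier results of these data known. Each table was fitted whole with edgeR 4.0.16 (limma 3.58.1, R 4.3.3): quasi-likelihood F-test, robust, TMM, filterByExpr with a minimum count of 10, two-sided, Benjamini-Hochberg over all genes tested at 0.05. The difference between exonic and intronic change is the region-by-treatment interaction, each library its own block. SE is the coefficient divided by the square root of F. CPM use TMM library sizes, and levels per kb use the joined exons of GENCODE vM21. The fits were also run on simulated counts with a fixed dispersion and no pairing of replicates. That run cannot show how they behave on libraries paired as described below.

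Columns of the tables were matched by the correlation of their deviations from group means. Numbers 2 and 3 were exchanged in both groups (r of 0.993 or more for the best match, -0.57 or less for the same name); each table keeps its own names. Same-numbered Pilo and Mock libraries deviated together (r 0.45 to 0.523, other pairs at most 0.0414), so the replicate numbers pair the samples, and the fit with that block is given where it changes a member's call or the count of a pathway list or of the markers of other cells. Libraries within a group were further apart than sampling allows (chi-square over its degrees of freedom 10.2 to 34.2).

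Members were named with all library values if they passed the exonic or the difference test, or were on a list of 14 genes given whatever their result; pathway lists name up to 4 genes of smallest p. Alternatives were RLE size factors, no filter or a minimum count of 50, DESeq2 1.42.0, limma-voom, the replicate block, leaving out each library, and exonic plus intronic counts. Exonic counts of the second table were added after seeing the data.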

Additional observations from a re-analysis of the deposited data

Results flagged for a closer look

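Of 158 sets of 4 libraries examined (within a group, the exonic CPM of each of the 53 genes, from the second table for Pde2a, the intronic CPM of those past the intronic or the difference test, and the 7 marker sums), 9 had 1 library far from the other 3. Chance alone flags about 1 in 20 such sets, so this number is near what chance gives. In Pilo replicate 1 these were exonic Pde10a at 516.6 CPM, exonic Prkacb at 315.2 CPM and intronic Prkacb at 285.8 CPM, all high. In Pilo replicate 3 they were exonic Pde3a at 4.177 CPM, exonic Adcy4 at 1.435 CPM and the endothelial and mural marker sum at 72.18 CPM, all high, and exonic Pde3b at 47.57 CPM, low. In Mock they were exonic Adcy1 at 568.4 CPM in replicate 1, high, and intronic Pde3b at 45.03 CPM in replicate 3 of the second table, low.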

How the results depend on the processing

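Rapgef2, Pde4b, Pde3b, Adcy8, Pde1a, Adcy9, Prkacb, Adcy7 and Gucy2e passed the exonic test in the same direction under all 16 alternatives; Pde4d did so in 15. Over all named genes and settings, 583 values kept direction and call, 84 lost the call, 6 gained it and 14 changed sign. The count of genes lower in exons (5) was 3 with RLE size factors, 8 with the replicate block and 2 to 5 without 1 library; that of genes higher (10) was 8 to 10 without 1 library. Counts with the replicate block were 17 higher and 11 lower in introns, and 10 higher and 8 lower for the difference between regions. Without 1 library the difference passed for 2 to 7 genes higher and 1 to 5 lower. The block took no exonic call away. Signs turned only for genes whose exonic log2 fold change, at most 0.12 (Prkaca) with all libraries, did not pass the test. Without 1 library, first-table Pde2a ran from -0.0813 to 0.137 (below 0 without Pilo replicate 2 or Mock replicate 1), Prkar1a from -0.0147 to 0.0692 (Pilo replicate 1 or Mock replicate 2), Prkar1b from -0.0252 to 0.0849 (Pilo replicate 1, Pilo replicate 3, Mock replicate 2 or Mock replicate 4) and Rapgef4 from -0.0168 to 0.0943 (Pilo replicate 1). Prkaca was -0.00391 and Prkar1b -0.135 with intronic counts added; Prkar1a was -0.000801 and Prkar1b -0.0193 in the second table, and Prkar1b -0.0153 at a minimum count of 50. The causes were not tested. Counts near or below 1 CPM limit what can be said of Pde6g, Adcy4 and Adcy10. Gucy2e was also low, with exonic means of 1.55 CPM in Pilo and 3.10 CPM in Mock.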
